A study of Mus musculus with 7 samples.

Results

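The 43 genes described here make ribosomes in the nucleolus or form the RNA exosome, and they were taken by gene symbol from a deposited table of 54347 gene identifiers. Of these, 3 genes (Exosc7, Rbm34 and Efl1) were chosen because they stood higher in Emcn-/- libraries, so their values between genotypes are given as a description with no test. The other 40 were listed for their function, and each was found in the table. They hold the cap, ring and nuclease subunits of the exosome, the proteins of both classes of snoRNP (small nucleolar RNA particle), assembly factors of the small and large ribosomal subunits, and RNA polymerase I with its factors. All 43 passed the filter on low counts, with mean levels between 6.78 and 2304 CPM (counts put on the scale of a common library size).

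RNA was sequenced from long-term haematopoietic stem cells (LT-HSCs) of female mice, sorted from lineage-depleted bone marrow with antibodies that include c-kit, Sca-1, CD150 and CD48. The knockout (KO) group was Emcn-/- and held 3 mice, named ko_306, ko_314 and ko_320 after their numbers in the labels. The wild-type (WT) group was Emcn+/+ and held 4 littermates, wt_284, wt_290, wt_310 and wt_312. All 7 mice carry the strain label C57BL/6N-EMCN em1(IMPC)Wtsi /WtsiH, and each library came from 3000 to 5000 cells of a separate mouse. The labels name neither a Cre driver nor a limit of the deletion to a tissue, and they give no age and no treatment, so age differences between the groups were not tested. Emcn encodes endomucin, a sialomucin of endothelium and stem cells.

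A ribosome begins as a long precursor RNA that RNA polymerase I copies from the rDNA repeats. Box C/D snoRNPs add methyl groups to this precursor and box H/ACA snoRNPs convert uridines to pseudouridine, while the processome folds and cuts the part that becomes the 40S subunit. The RNA exosome, a ring of subunits with a cap and attached nucleases, trims ribosomal RNA ends from their 3′ side and degrades spacer fragments and many other nuclear RNAs. Efl1, a GTPase, and Sbds, which is mutated in Shwachman-Diamond syndrome with bone marrow failure, together release the factor Eif6 from new 60S subunits in the cytoplasm. Haematopoietic stem cells are known for a low rate of protein synthesis.

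The stretches upstream of the 3 genes chosen for their higher KO levels are printed so that their starts can be compared. Each is the 250 bases before the start in the RefSeq promoter table (GRCm38.p6), on the gene's own strand, and the capitals mark CCGGAAG or its reverse complement CTTCCGG, the core of sites bound by ETS factors. Exosc7 lies on the plus strand at chr9:123112981-123113230, Efl1 on the plus strand at chr7:82648364-82648613, and Rbm34 on the minus strand at chr8:126971050-126971299.
Exosc7: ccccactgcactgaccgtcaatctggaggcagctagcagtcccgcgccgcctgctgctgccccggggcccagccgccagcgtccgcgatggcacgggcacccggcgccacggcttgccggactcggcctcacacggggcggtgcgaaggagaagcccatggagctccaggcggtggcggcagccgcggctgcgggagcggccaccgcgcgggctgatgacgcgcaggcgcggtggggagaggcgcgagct
Efl1: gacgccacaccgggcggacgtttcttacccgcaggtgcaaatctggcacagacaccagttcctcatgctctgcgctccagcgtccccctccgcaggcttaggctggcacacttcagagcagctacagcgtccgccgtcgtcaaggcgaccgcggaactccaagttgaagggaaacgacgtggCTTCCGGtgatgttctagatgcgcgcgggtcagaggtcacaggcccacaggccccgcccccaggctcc
Rbm34: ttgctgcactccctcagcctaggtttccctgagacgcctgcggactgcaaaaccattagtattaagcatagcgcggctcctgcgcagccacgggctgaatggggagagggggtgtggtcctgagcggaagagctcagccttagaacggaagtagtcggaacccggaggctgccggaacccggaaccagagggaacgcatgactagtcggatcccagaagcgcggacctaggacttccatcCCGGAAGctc
The Exosc7 stretch had a GC content of 76.0% and held none of the motifs searched. The Efl1 stretch had a GC content of 64.4% with the ETS core ending 62 bases before the start. The Rbm34 stretch had a GC content of 60.4% with the core ending 4 bases before the start. These distances hold for the RefSeq starts. In the GENCODE M21 annotation Exosc7 starts at 123113215 and Rbm34 at 126971071, so the ends of both stretches lie inside the annotated genes. By that annotation the core of Rbm34 lies within the gene and not upstream of it.

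Promoters were in the table for 36 of the 43 genes, 44 promoters in all, and motifs were searched on both strands. CCGGAAG stood in 10 of the 44 (22.7%), against 6.91% of all 32851 promoters and 13.5% of 12009 promoters of tested protein-coding genes. Besides Efl1 and Rbm34 these were the promoters of Emg1, Exosc10, Gar1, Heatr1, Ltv1, Nhp2, Nip7 and Nolc1. CACGTG, the E-box letters that MYC binds, stood in 3 promoters (6.82%), those of Exosc5, Imp4 and Rrn3, against 6.02% of all promoters and 8.35% of those of tested genes. TATAAA stood in 2 (4.55%), those of Dkc1 and Pes1, against 12.4% and 6.64%. The CGCG element, a longer palindrome around these letters, stood in 0, against 0.39% and 0.841%. The median GC content was 57.8%, against 59.6% for promoters of tested genes and 52.4% for all promoters. A match is a run of letters and does not show that a factor binds there.

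Library totals ran from 6648881 to 11101774 counts in KO and from 6444134 to 10322741 counts in WT. KO libraries held 1, 0 and 0 counts of Emcn, and WT libraries held 130, 327, 223 and 216. Stem cell genes such as Kit, Mecom, Hlf and Meis1 were present in all 7 libraries. The summed level of 15 such markers was 3257, 3102 and 3304 CPM in KO and 2057, 3064, 2969 and 3479 CPM in WT, lowest in wt_284. The summed level of 16 myeloid markers was 716, 253 and 218 CPM in KO and 15291, 1333, 1328 and 261 CPM in WT, highest in wt_284, with wt_290 and wt_310 also above every KO library. That of 11 erythroid markers (Hbb-bs was not matched by symbol) was 811, 676 and 849 CPM in KO and 4364, 1223, 1392 and 624 CPM in WT, in the same pattern. Of these sums, Car2 alone gave 501, 470 and 575 CPM in KO and 632, 648, 584 and 370 CPM in WT. The 8 mast cell and basophil markers summed to 0.746 to 12.6 CPM in KO and 10.5 to 214 CPM in WT, with Cma1 at 0 counts in every library. The 9 B lymphoid markers summed to 11.5 to 16 CPM in KO and 12.1 to 95.5 CPM in WT. The 7 matched T and NK markers summed to 5.07 to 9.93 CPM in KO and 5.14 to 19.2 CPM in WT. Both of these lists were highest in wt_284. Fold changes of the tested myeloid, erythroid and mast cell markers were below 0 for 16 of 16, 11 of 11 and 5 of 5. The 20 cycling markers summed to 2454 to 3560 CPM in KO and 2401 to 5417 CPM in WT, with 18 of 20 fold changes below 0. The library wt_284 stands farthest apart, and the main counts below are given with and without it. Leaving it out does not even out these markers between the genotypes, and their part in the results was not tested. In such bulk RNA, fewer cells of a type and less RNA per cell cannot be told apart.

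Of the 9 exosome subunits, Exosc7 is described without a test because its higher KO level chose it. Of the other 8, 0 passed the test, with 3 fold changes above 0 and 5 below. Over all 15372 genes tested 0.00651% passed, which is Emcn alone, and 47.6% of fold changes were above 0. Exosc7, a core ring protein encoded on the plus strand at chr9:123113215-123136129 (GRCm38), had 37.3, 42.7 and 46.1 CPM in KO and 24.2, 32.7, 23.5 and 24.9 CPM in WT, or 42.0 ± 4.44 against 26.3 ± 4.26 CPM (SD, n = 3 and 4). The lowest KO library lies above the highest WT library, wt_290, and the log2 fold change was 0.67 (SE 0.22), which is 1.59-fold. Without wt_284 it was 0.64. These are the values that chose the gene, and nothing further is read from them.

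The remaining ring subunits gave overlapping groups. Exosc5 had 36.9, 50.1 and 32 CPM in KO and 33.7, 34.3, 27.2 and 32.5 CPM in WT (log2 fold change 0.31, 95% interval -0.17 to 0.79). Exosc4 had 9.64, 8.05 and 5.60 CPM in KO and 4.97, 7.55, 5.50 and 6.16 CPM in WT (0.36, -0.60 to 1.32). Both had 2 of 3 KO libraries above every WT library and the third, ko_320, among them. Exosc8 had 25.0, 30.9 and 27.5 CPM in KO and 31.9, 23.0, 42.0 and 23.0 CPM in WT (-0.11, -0.68 to 0.47). Exosc9 had 43.5, 44.0 and 60.7 CPM in KO and 42.7, 44.1, 63.0 and 66.5 CPM in WT (-0.13, -0.61 to 0.36). For Exosc8 and Exosc9 the KO values lay inside the WT range. The ring subunit Exosc6 is no member and was low at 3.96, 0 and 3.44 CPM in KO and 0.849, 0.944, 2.14 and 2.70 CPM in WT (0.59, -1.80 to 2.98).

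The cap subunits, which bind RNA at the entry of the ring, showed no separation of the genotypes. Exosc1 had 20.0, 24.3 and 27.0 CPM in KO and 16.4, 19.8, 33.9 and 34.8 CPM in WT (-0.14, -0.81 to 0.52). Exosc2 had 49.2, 56.1 and 41.1 CPM in KO and 41.2, 52.4, 47.7 and 58.4 CPM in WT (-0.03, -0.46 to 0.39). Exosc3, the cap subunit mutated in a form of pontocerebellar hypoplasia, had 20.6, 17.7 and 28.3 CPM in KO and 23.4, 20.7, 17.6 and 17.0 CPM in WT (0.18, -0.41 to 0.76). For Exosc1 the spread among WT mice was wider than the difference between the genotypes, and wt_284 and wt_290 were the lower pair and wt_310 and wt_312 the higher pair.

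Exosc10, the nuclease that works with the exosome in the nucleolus, was the exosome member whose KO values all lay below its WT values. It had 89.4, 75.2 and 81.5 CPM in KO and 90.1, 98.4, 89.6 and 89.9 CPM in WT. The gap between ko_306 and wt_310 was small beside the spread of either group, and the log2 fold change was -0.16 (SE 0.15, 95% interval -0.49 to 0.16, adjusted p = 0.992 by edgeR), which did not pass the test. The nuclease Dis3, no member, had 88.6, 95 and 78.8 CPM in KO and 78.4, 95, 100 and 97.6 CPM in WT (-0.09, -0.43 to 0.26). The helicase Mtrex, which feeds RNA to the nuclear exosome, had 111, 99.0 and 147 CPM in KO and 123, 110, 101 and 117 CPM in WT (0.08, -0.29 to 0.44). For Dis3 and Mtrex the KO and WT values overlapped.

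**Figure D1:**
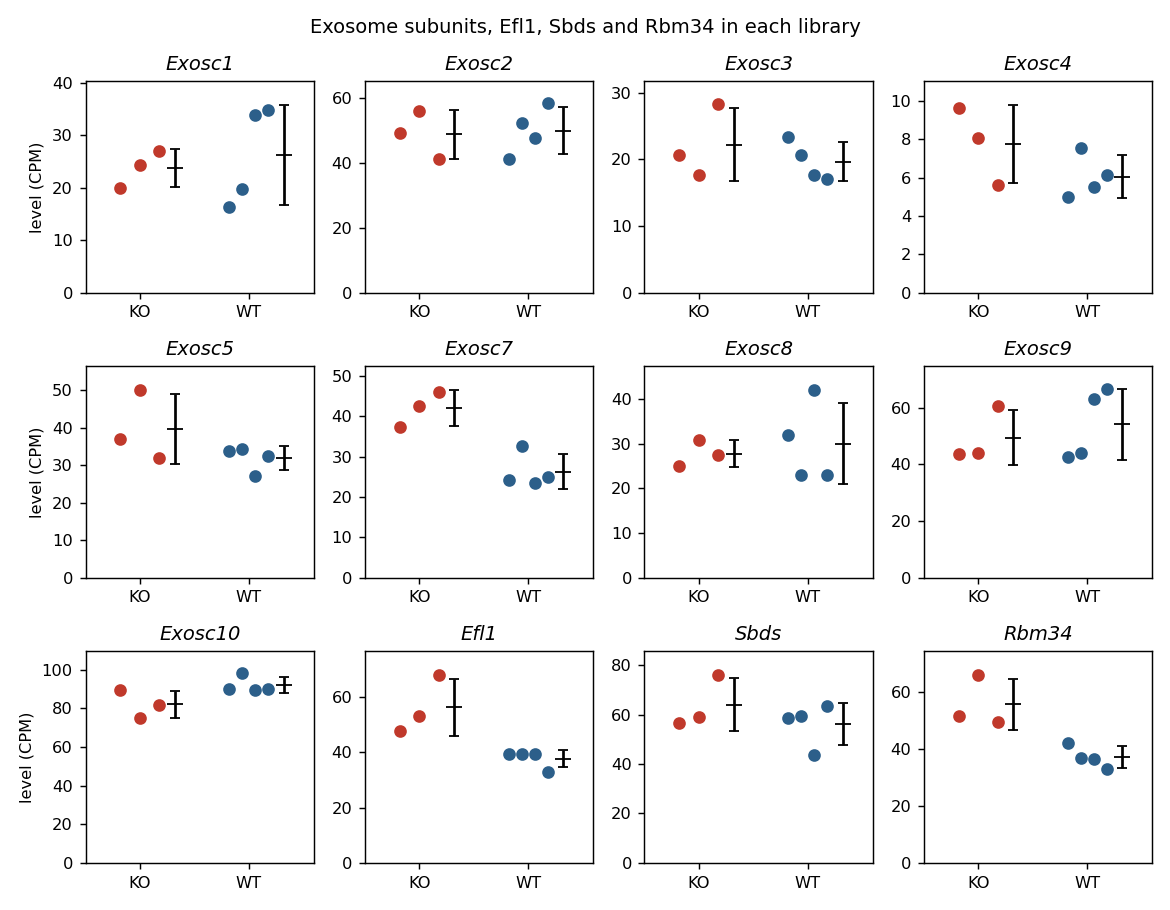
Level in CPM (vertical axis, from 0) of the 9 exosome subunits, Efl1, Sbds and Rbm34 in the 3 KO (left, red) and 4 WT (right, blue) libraries. Each point is a library and the black bar is the mean with the SD. Exosc7, Efl1 and Rbm34, chosen for higher KO values, show KO points above all WT points, Exosc10 shows them just below, and the other 8 genes overlap.

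Taken as a complex, 4 of the 9 exosome subunits had a fold change above 0 and 5 below, with a median of -0.03 on the log2 scale. Over all genes tested the median was -0.02. Without Exosc7, 3 subunits were above and 5 below 0, with a median of -0.07 and a range of -0.16 to 0.36. The summed level of those 8 subunits was 301 ± 6.46 CPM in KO and 310 ± 21.3 CPM in WT (SD, n = 3 and 4), a difference smaller than the WT spread. Exosc7 came to 12.7%, 13.9% and 15.2% of that sum in KO and 8.53%, 10.9%, 7.21% and 7.59% in WT. These shares, and the rank of Exosc7 per length of transcript below, reflect its choice for higher KO levels. Nothing about the genotypes is read from them. Per length of transcript, Exosc7 and Exosc5 led in KO at 39.9 ± 4.22 and 38.9 ± 9.20 CPM per kb (SD, n = 3). In WT, Exosc9 led at 33.4 ± 7.69 CPM per kb, with Exosc10 at 33.0 ± 1.53, Exosc5 at 31.3 ± 3.17 and Exosc7 at 25.0 ± 4.04 (SD, n = 4). Over all 7 libraries, 8 subunits had means between 19.3 (Exosc3) and 34.5 (Exosc5) CPM per kb, and the ranges of neighbours in that order overlap. Exosc4 was last at 3.78 ± 0.94 CPM per kb (SD, n = 7), and its range of 2.77 to 5.37 lies below the lowest Exosc3 value of 15.7. The transcript used for Exosc4 is 1796 bases, longer than for the other ring subunits, and its per-length level depends on that choice.

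Of the 2 factors that release Eif6, Efl1 was chosen for its KO level and Sbds was not. Efl1, on the plus strand at chr7:82648614-82777852, had 47.8, 53.1 and 67.9 CPM in KO and 39.3, 39.3, 39.4 and 33.0 CPM in WT, or 56.3 ± 10.4 against 37.7 ± 3.16 CPM (SD, n = 3 and 4). Every KO library lay above every WT library, with a log2 fold change of 0.57 (SE 0.19), as the choice of the gene implies. Its partner Sbds had 56.7, 59.1 and 76.2 CPM in KO and 58.7, 59.3, 43.7 and 63.3 CPM in WT (0.18, 95% interval -0.23 to 0.60, adjusted p = 0.992 by edgeR). Here ko_320 was highest and the other KO libraries lay among the WT ones. The level of Efl1 was 84.2%, 89.9% and 89.1% of that of Sbds in KO and 66.9%, 66.2%, 90.2% and 52.1% in WT. The ratio in wt_310, the library with the lowest Sbds, was above all the KO ratios. Eif6 itself, no member, had 27.9, 37.9 and 39.7 CPM in KO and 45.3, 38.9, 51.2 and 37.9 CPM in WT (-0.30, -0.77 to 0.16), with the groups overlapping. Exon sequence of Efl1 overlaps the annotated gene Gm45807 on the same strand, and reads there could have been shared between them.

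Rbm34, an RNA-binding protein of the nucleolus encoded on the minus strand at chr8:126947172-126971071, had 51.5, 65.8 and 49.5 CPM in KO and 42.1, 36.9, 36.5 and 33.0 CPM in WT, or 55.6 ± 8.86 against 37.1 ± 3.73 CPM (SD, n = 3 and 4). The groups do not overlap, again as chosen, and the log2 fold change was 0.58 (SE 0.19). Without wt_284, Efl1 stood at 0.60 and Rbm34 at 0.65. The highest KO value came from ko_314 for Rbm34 and from ko_320 for Efl1 and Exosc7.

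The box H/ACA proteins all had fold changes above 0, and none passed the test. Dkc1, the pseudouridine synthase whose human gene is mutated in dyskeratosis congenita, had 133, 144 and 170 CPM in KO and 116, 131, 116 and 124 CPM in WT. Every KO library lay above every WT library by a narrow margin over wt_290, and the log2 fold change was 0.29 (SE 0.14, 95% interval -0.02 to 0.61, adjusted p = 0.992 by edgeR). Gar1 had 19.2, 17.3 and 33.9 CPM in KO and 16.8, 22.9, 17.0 and 12.6 CPM in WT (0.43, -0.26 to 1.12), and ko_320 stood above the rest. Nhp2 and Nop10, the remaining proteins of the core, had log2 fold changes of 0.21 and 0.28. The 4 proteins summed to 209, 239 and 288 CPM in KO and 180, 220, 211 and 191 CPM in WT, where ko_306 lies within the WT range.

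Among the box C/D proteins, Nop58 was without overlap, and Nop56, its paralogue in the same particle, was not. Nop58 had 243, 247 and 280 CPM in KO and 194, 221, 225 and 210 CPM in WT, with all KO values above all WT values (0.27, SE 0.13, 95% interval -0.02 to 0.56, adjusted p = 0.992 by edgeR). Nop56 had 221, 317 and 208 CPM in KO and 237, 223, 258 and 246 CPM in WT (0.05, -0.31 to 0.40). For Nop56 the KO mice span the whole range, with ko_314 highest and ko_320 lowest. Fbl, the methyltransferase fibrillarin, had 103, 89.0 and 88.9 CPM in KO and 108, 125, 97.7 and 78.6 CPM in WT (-0.13, -0.52 to 0.25).

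The abundant nucleolar proteins carried most of the counts of the set. Ncl, nucleolin, had 2438, 2063 and 2430 CPM in KO and 2349, 2581, 2041 and 2223 CPM in WT (0.01, -0.27 to 0.28). Npm1, the nucleolar chaperone nucleophosmin, had 954, 1092 and 1346 CPM in KO and 819, 990, 1022 and 1162 CPM in WT (0.18, -0.16 to 0.52). Both genes overlapped between genotypes, and the Ncl interval excludes a change of 1.5-fold in either direction. Ncl alone made up 38.0%, 32.9% and 36.1% of the counts of the 43 genes in KO and 39.2%, 39.5%, 34.6% and 36.7% in WT. Gnl3, the nucleolar GTPase nucleostemin, had a log2 fold change of 0.25 (-0.11 to 0.60), and Nolc1, a chaperone of snoRNPs, had -0.04 (-0.36 to 0.29).

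**Figure D2:**
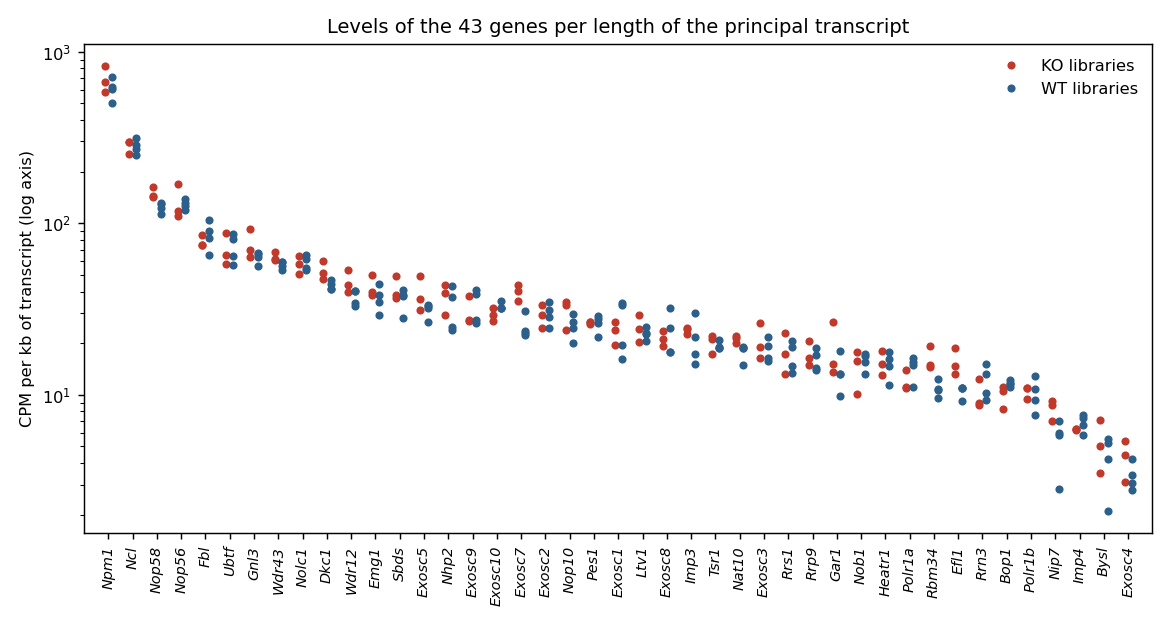
Level of the 43 genes in CPM per kb of transcript (vertical log axis) in each KO and WT library (points), with genes ordered by mean from high to low. By group mean and with the transcript lengths used, Npm1 leads at 692 in KO and 611 in WT, ahead of Ncl at 282 in KO and 280 in WT. Exosc4 is last at a mean of 4.32 in KO and 3.37 in WT.

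Per length of transcript, Npm1 was the most abundant gene of the set at 692 ± 122 CPM per kb in KO and 611 ± 86.3 in WT (SD, n = 3 and 4). Ncl was next at 282 ± 26.1 CPM per kb in KO and 280 ± 27.6 in WT. The transcript used for Ncl is 8202 bases and that for Npm1 is 1633 bases. In CPM, Ncl was the higher, at a mean of 2304 against 1055 over all 7 libraries. The order of Npm1 and Ncl per kb depends on that choice of transcript. Nop58 and Nop56 were close together at 150 and 133 CPM per kb in KO and 124 and 128 in WT. The plot of levels per kb shows the KO and WT libraries as points side by side over the whole range.

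The 5 assembly factors of the large subunit gave 4 fold changes above 0 and 1 below. Nip7 had 21.4, 26.4 and 28.0 CPM in KO and 18.2, 21.4, 17.7 and 8.60 CPM in WT (0.61, SE 0.32, 95% interval -0.08 to 1.30, adjusted p = 0.992 by edgeR). Its fold change was the highest of the 40 genes listed for function, and wt_312 was far lower than the other WT libraries. Wdr12, which joins Bop1 and Pes1 in the PeBoW complex, had 124, 151 and 113 CPM in KO and 93.7, 115, 98.4 and 114 CPM in WT (0.30, -0.05 to 0.64), and ko_320 overlapped with WT. Of its partners, Bop1 stood at -0.22 (-0.71 to 0.27) and Pes1 at 0.01 (-0.34 to 0.37) on the log2 scale. Rrs1 stood at 0.07.

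For the small subunit, 6 of 7 processome genes had a fold change above 0, with a median of 0.15 and values from -0.12 (Imp4) to 0.24 (Nat10). Wdr43 had 213, 235 and 211 CPM in KO and 186, 206, 194 and 206 CPM in WT, with no overlap between the groups (0.15, SE 0.13, 95% interval -0.13 to 0.43). Nat10, which acetylates cytidines of the 18S rRNA, had 77.7, 83.5 and 85.7 CPM in KO and 74.1, 73.0, 72.7 and 58.3 CPM in WT, also with no overlap (0.24, SE 0.16, -0.11 to 0.59). Neither passed the test (adjusted p = 0.992 each, by edgeR). The 7 genes summed to 534, 551 and 524 CPM in KO and 497, 523, 481 and 466 CPM in WT. Between Emg1, Imp3, Rrp9 and Heatr1 the log2 fold changes were 0.22, 0.18, 0.11 and 0.04.

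Of the 4 late 40S factors, 3 fold changes were above 0 and 1 below. Bysl, bystin, had 19.4, 27.4 and 13.5 CPM in KO and 21.2, 20.3, 16.4 and 8.09 CPM in WT (0.28, 95% interval -0.52 to 1.08), and its WT libraries differed 2.62-fold, the widest WT spread of the 43 genes. Nob1, the endonuclease that makes the 3′ end of 18S rRNA, stood at -0.11, Ltv1 at 0.11 and Tsr1 at 0.05. Exons of Bysl overlap Ccnd3 on the other strand, and no source used here says whether the counting used strand.

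Of RNA polymerase I and its factors, 3 of 4 fold changes were below 0, with a median of -0.15, and none passed the test. Without wt_284, Ubtf stood at 0.06, so that 2 of 4 were below 0 and the median was -0.07. Polr1a, the largest subunit, had 129, 103 and 102 CPM in KO and 152, 138, 144 and 102 CPM in WT (-0.27, SE 0.17, 95% interval -0.64 to 0.11). The KO libraries overlapped with WT only through wt_312. Rrn3, the initiation factor that recruits the polymerase, had 44.3, 32.1 and 31.5 CPM in KO and 36.7, 47.7, 54.3 and 33.4 CPM in WT (-0.26, -0.77 to 0.25). Ubtf, which binds the rDNA, stood at -0.04 and the subunit Polr1b at 0.04. Summed over the 4 genes the level was 459, 353 and 338 CPM in KO and 472, 447, 427 and 325 CPM in WT, so each genotype held high and low libraries.

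**Figure D3:**
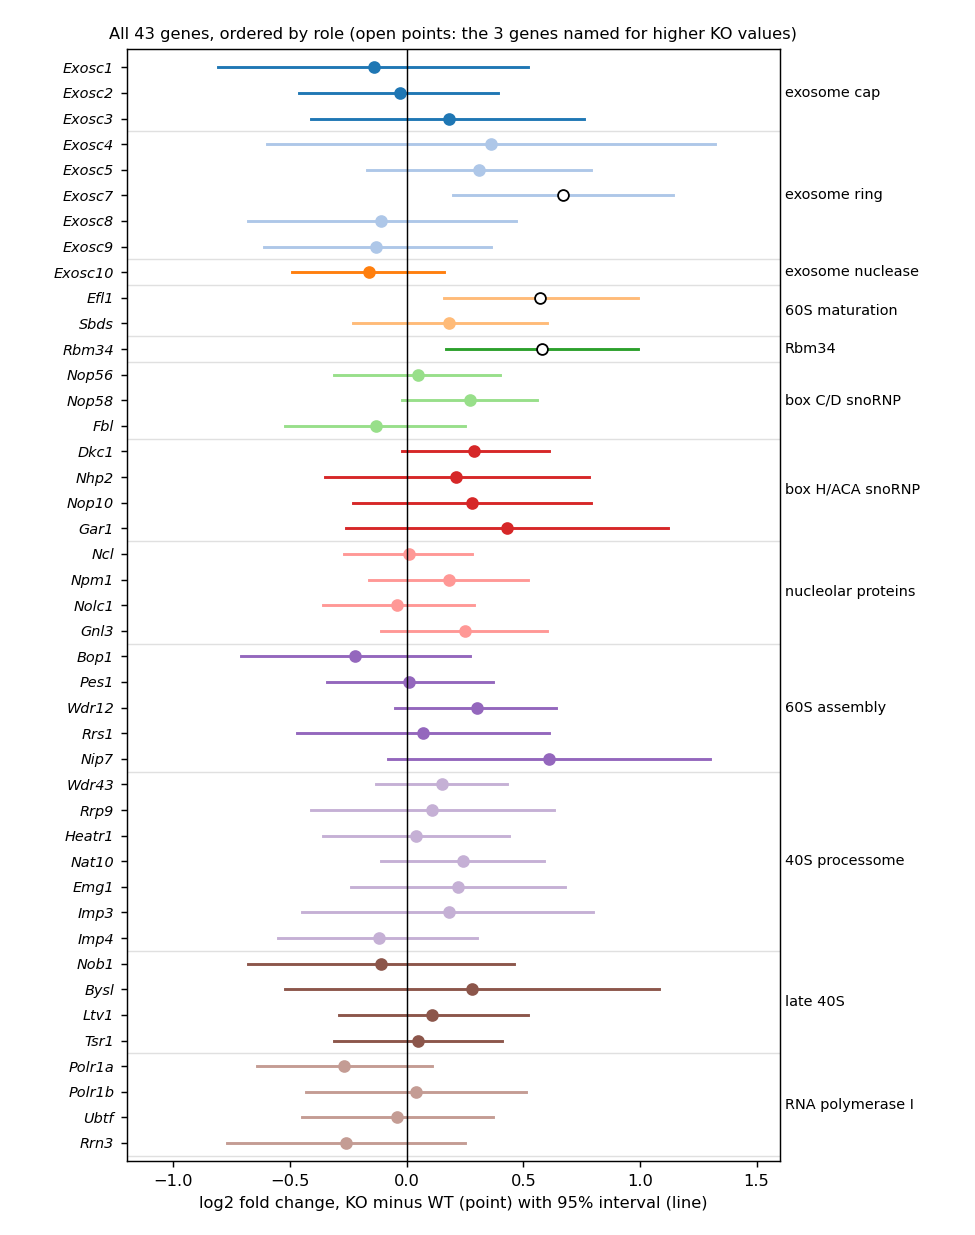
Log2 fold change, KO minus WT (horizontal axis, points), with 95% intervals (lines) for the 43 genes, ordered by role from the exosome cap at the top to RNA polymerase I at the bottom. The open points are Exosc7, Efl1 and Rbm34 at 0.67, 0.57 and 0.58, and the intervals of the 40 filled points all include 0.

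Across the 40 genes listed for function, 0 passed the test in edgeR with p adjusted over all genes, where 0.00651% of all genes tested passed (1 gene, which had lower KO values). At an unadjusted p under 0.05 there were also 0 of 40, against 3.27% of all genes (1.28% higher and 1.99% lower). Groups did not overlap for 4 genes with higher KO values (Nop58, Dkc1, Wdr43 and Nat10), or 10% of the 40 against 2.43% of all genes. They did not overlap for 1 gene with lower KO values (Exosc10), or 2.50% against 2.43%. Without wt_284 these counts were 5, against 3.64% of all genes, and 1, against 3.62%. The log2 fold changes without wt_284 were 0.23 for Nop58, 0.27 for Dkc1, 0.12 for Wdr43, 0.28 for Nat10 and -0.17 for Exosc10.

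Fold changes were above 0 for 27 of the 40 genes (67.5%) and below 0 for 13, with a median of 0.09. With the 3 chosen genes these were 30 of 43 and a median of 0.11. Among the 10968 tested genes at or above the level of the least abundant member, 48.7% were above 0 and the median was -0.01. Without wt_284, 28 of the 40 were above 0 and the median was 0.09, while 50.1% of all genes tested in that fit were above 0. In that fit the counts above and below 0 were the same in each role, except in RNA polymerase I. For the 8 exosome subunits other than Exosc7 they were again 3 and 5, with a median of -0.09, although Exosc1 stood at -0.31, against -0.14 with all libraries. The whole set summed to 6408, 6274 and 6736 CPM in KO and 6001, 6534, 5894 and 6051 CPM in WT, and wt_290 lies among the KO libraries. For 16 of the 43 genes the 95% interval lay within 1.5-fold in either direction, and for 38 it lay within 2-fold, against 29.3% and 69.6% of the genes at or above that level and 20.9% and 49.6% of all genes tested.

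The mice differed in a way that the genotype does not fully describe. Of the 43 genes, 13 were highest in ko_320 and 11 in ko_314, or 30.2% and 25.6%, where these libraries held the highest value of 17.4% and 15.4% of all genes. The library ko_306 was highest for 4 (9.3%, against 5.46% of all genes) and lowest for 0 (against 5.6% of all genes). In WT, wt_312 held the lowest value of 15 genes (34.9%, against 20% of all genes) and wt_284 that of 10 (23.3%, against 17.7%). The library wt_290 was lowest for 1 (2.33%, against 6.77%). Both ko_306 and wt_290 were thus seldom the lowest library over all genes as well. The library wt_284 was highest for 3 of the 43 (6.98%, against 23.1% of all genes). The 3 chosen genes, which had to be highest in a KO library, are among these counts.

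**Figure D4:**
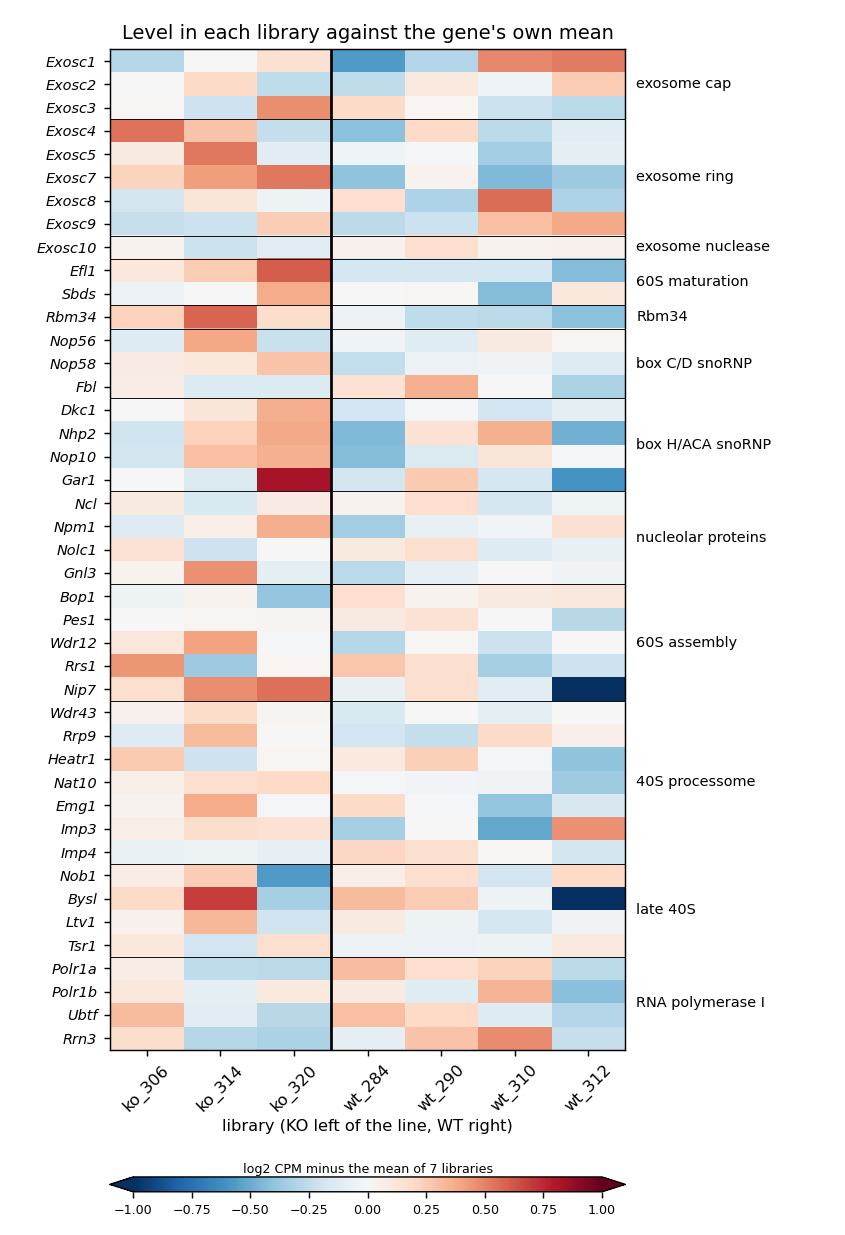
Heat map of log2 CPM in each library minus the gene's mean over 7 libraries (blue below, red above), for 43 genes grouped by role, with KO libraries left of the line and WT libraries right. Nip7 and Bysl are darkest blue in wt_312, at 8.60 and 8.09 CPM, and Gar1 is darkest red in ko_320, at 33.9 CPM.

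A wider list of 135 other genes of the same pathways was read in the same fit. Of these, 134 were tested and 1 was not matched by symbol. Fold changes were above 0 for 83 (61.9%, against 47.6% of all genes tested) and below 0 for 51, with a median of 0.06. In edgeR 0 passed the test. At an unadjusted p under 0.05 there were 3, all with higher KO values, or 2.24% against 1.28% of all genes. Utp15, a processome protein, had 41.8, 50.7 and 55.0 CPM in KO and 30.3, 37.7, 32.7 and 41.6 CPM in WT (0.47, SE 0.20). Spata5, whose yeast counterpart is an ATPase that recycles 60S assembly factors, had 44.7, 58.5 and 73.5 CPM in KO and 35.3, 37.3, 46.9 and 42.3 CPM in WT (0.54, SE 0.21). Znhit6, a box C/D assembly factor, had 52.1, 45 and 48 CPM in KO and 38.1, 36.7, 27.7 and 35.6 CPM in WT (0.49, SE 0.20). Each had an adjusted p of 0.992 by edgeR, and the groups of Spata5 overlapped.

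By role, the medians of the wider list ran from -0.30 for the few late 40S factors to 0.13 for the snoRNP assembly factors. Of 15 exosome cofactors and nucleases 9 stood above 0 with a median of 0.06, of 40 other processome genes 24 with a median of 0.05, and of 43 other large subunit factors 27 with a median of 0.04. Of 15 other genes of RNA polymerase I, 11 stood above 0 with a median of 0.08, whereas the 4 members had a median of -0.15. Of 10 snoRNP assembly factors 7 stood above 0 with a median of 0.13, of 6 cytoplasmic 60S factors 3, and of 5 other late 40S factors 2 with a median of -0.30. Groups did not overlap for 4 genes with higher KO values (C1d, Utp15, Rsl24d1 and Znhit6) and for 2 with lower (Ddx49 and Ruvbl2), or 2.99% and 1.49% against the 2.43% of all genes for each.

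The gene structures share features that the choice of genes did not use. In GENCODE M21 (GRCm38), 7 of the 43 (16.3%) have a snoRNA gene inside them on the same strand, against 1.94% of 11903 tested protein-coding genes. These are Nop56 with 5, Nop58 with 4, Ncl, Gnl3 and Wdr43 with 3 each, Tsr1 with 2 and Dkc1 with 1, so Nop58 and Nop56 carry box C/D snoRNA genes in their own introns. A protein-coding gene starts back to back within 1000 bp, on the other strand, for 12 of the 43 (27.9%), against 10.5%. For 21 of the 43 an exon overlaps a gene on the other strand, as with Exosc9 and Ccna2 or Exosc3 and Dcaf10. The share of such overlaps over all genes tested was not computed, so this count is not read as a trait of the set. If the counting ignored strand, reads of such partners could be mixed.

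Of the 3 chosen genes, 1 has a back-to-back partner that could be tested. The start of Zdhhc3 lies 10 bp from that of Exosc7, and Zdhhc3, a palmitoyltransferase, had 56.8, 33.9 and 53.1 CPM in KO and 75.2, 59.9, 55.5 and 28.6 CPM in WT (-0.19, SE 0.30, 95% interval -0.85 to 0.47). Saxo2, 86 bp from Efl1, had 4, 0 and 6 counts in KO and 0, 11, 0 and 0 counts in WT and was too low to test. Rbm34 has no such partner. Over the 11 tested partners 4 fold changes were above 0 and 7 below, with a median of -0.09 and 0 at an unadjusted p under 0.05, against 3.27% of all genes. The sign was that of the member in 7 of 11 pairs. Cog8, the partner of Nip7, had 23.7, 21.9 and 20.9 CPM in KO and 22.9, 25.8, 28.0 and 6.68 CPM in WT (0.09, -0.78 to 0.96), so wt_312 was the lowest library for both genes of that pair.

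**Figure D5:**
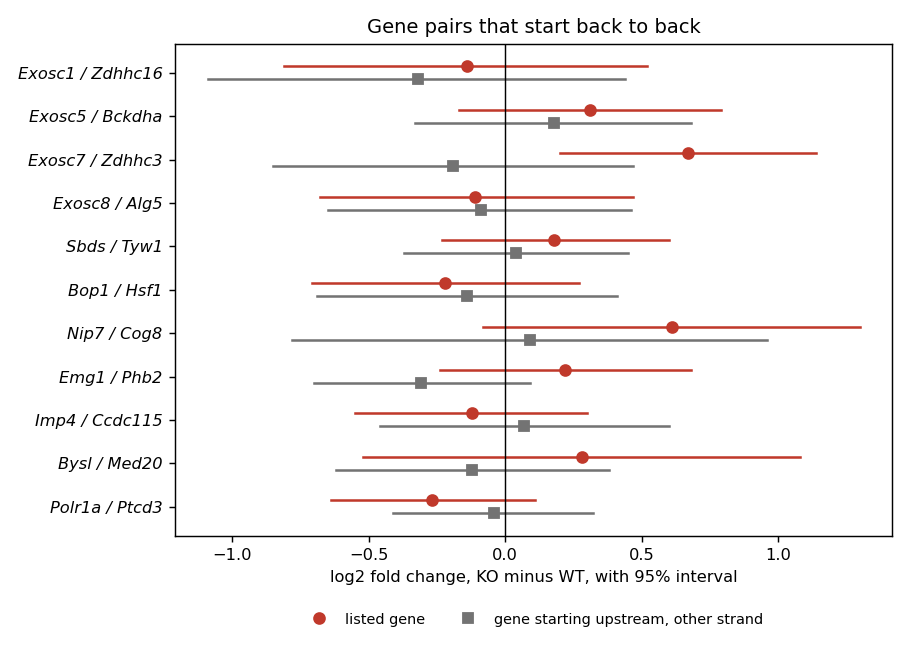
Log2 fold change, KO minus WT (horizontal axis), with 95% intervals for 11 members and the tested gene that starts back to back with each, 1 pair per row. Exosc7 stands at 0.67 and its partner Zdhhc3 at -0.19. The pair of Efl1 and Saxo2 is not drawn because Saxo2 was too low to test.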

How the data were processed

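Estimated counts per gene, whole numbers as deposited, come from cutadapt and Salmon, per the submitters' processing notes, which give no versions. No source used here gives the annotation, the summing to genes or the strand setting. Per the labels' protocols, libraries were made with a stranded total RNA kit for low input, although the molecule label reads polyA RNA. All 7 value columns were used and 0 left out. Of the identifiers, 98.1% matched GENCODE M21 (GRCm38) with their version.

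Counts were compared, KO minus WT, by the quasi-likelihood test of edgeR 4.0.16 (robust, TMM factors, genes kept by filterByExpr; R 4.3.3) over all 7 libraries. Of 29739 genes with a count, 15372 were tested, with Benjamini-Hochberg adjustment over all of them and a threshold of 0.05. SE is the absolute log2 fold change over the root of the F statistic. Levels are TMM-scaled CPM, and levels per kb use the shortest principal transcript of the best rank. The edgeR step was tested on simulated data. Depth limits precision, and intervals describe the spread between these mice. No libraries were alike within sampling noise (chi-square per degree of freedom at least 7.07).

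The genes and lists were chosen with earlier results of these data known. Of the 43 genes, those named with values in every library are the exosome subunits, Efl1, Sbds, Rbm34, the most abundant genes, those without overlap or with an unadjusted p under 0.05, and the gene of the widest WT spread, with up to 2 further genes of smallest p per group. Of the wider list they are Exosc6, Dis3, Mtrex, Eif6 and those with an unadjusted p under 0.05. Values for a few other genes (Npm1 and Ncl being the most abundant, Nop56 and Fbl as partners of Nop58, Cog8 and Saxo2 among back-to-back genes) were added after they were seen. Alternatives were RLE and upper-quartile factors, DESeq2 1.42.0, limma-voom 3.58.1 with quality weights, testing every gene, keeping genes with 1 CPM in 3 libraries, the test without its robust option, only mice numbered above 300, and leaving out each mouse. Counts of genes without overlap leaving out each mouse, and counts by role without wt_284, were added after seeing the data. Protein sequences were not used here.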

Additional observations from a re-analysis of the deposited data

Results flagged for a closer look

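In 43 groups of 4 WT libraries, 5 had a library that stood apart from the other 3 by Dixon's test at the 95% level. Its nominal rate is about 1 in 20, but the 43 groups share the same 4 libraries and are not independent. The share over all genes tested was not computed, so no excess is read from the 5. The KO groups of 3 were too small for this test.

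The highest WT level of Exosc7 was 32.7 CPM in wt_290, with the other WT libraries between 23.5 and 24.9 CPM. In the same library Exosc10 was highest at 98.4 CPM, with the others between 89.6 and 90.1 CPM. The lowest WT level of Efl1 was 33.0 CPM in wt_312, with the others between 39.3 and 39.4 CPM. Also in wt_312, Nat10 was lowest at 58.3 CPM, with the others between 72.7 and 74.1 CPM. Tsr1 was highest in wt_312 at 70.9 CPM, with the others between 63.7 and 64.2 CPM. All 5 values belong to 2 mice, and the reason was not tested.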

How the results depend on the processing

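Under 15 alternatives none of the 40 genes listed for function passed the test. The number of genes called over the whole table was 1 with edgeR, 13 with DESeq2, 0 with limma-voom (469 at an unadjusted p under 0.05), 81 without a filter and 7 with only mice numbered above 300. Leaving out each mouse gave 1 to 3. The cause of these differences was not tested. The number of members above 0 was 30 and lay between 25 and 32, and the median of all 43 between 0.08 and 0.15. These values include the 3 genes chosen for higher KO levels, and the exosome median below includes Exosc7. The exosome median of -0.03 lay between -0.12 (only mice numbered above 300) and 0.10 over the alternatives, and between -0.07 and 0.10 when each mouse was left out, with 0.10 without wt_310 and 0.07 without wt_312, so its sign is not settled. Genes without overlap and with higher KO values numbered 4, and 4 to 8 when a mouse was left out. These were 6 without ko_306 (8.14% of all genes), 5 without ko_314 (4.76%), 8 without ko_320 (4.84%), 5 without wt_284 (3.64%), 6 without wt_290 (4.53%), 4 without wt_310 (4.55%) and 5 without wt_312 (5.87%). Those with lower KO values numbered 1, and 1 to 3, with 3 without ko_314 (4.59%) or wt_312 (7.14%), 2 without ko_306 (8.59%) or wt_290 (4.14%), and 1 without ko_320 (4.55%), wt_284 (3.62%) or wt_310 (4.47%). With the levels kept as they were, leaving out a mouse can only keep or add genes without overlap. Nop58, Dkc1, Wdr43, Nat10 and Exosc10 therefore had to remain, and these counts are no test of stability. Of 645 member values under the alternatives 41 had the opposite sign, in 19 genes whose log2 fold change was at most 0.18 in size. Exosc7 lay between 0.51 and 0.80, Efl1 between 0.44 and 0.66, Rbm34 between 0.46 and 0.68, Nip7 between 0.37 and 0.95 and Bysl between 0.01 and 0.72. No paired analysis was possible because mouse numbers are unique and the labels pair no mice.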
